A study of Mus musculus with 4 samples.

Results

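The genes described here are 8 iron genes of the mouse: the ferritin heavy chain gene Fth1 and its pseudogene Fth-ps3, the ferritin light chain gene Ftl1, the uptake genes Tfrc, Trf and Slc11a2, the exporter gene Slc40a1 and the heme oxygenase gene Hmox1. They were chosen by gene symbol and function, after the day 10 ratios of Fth1 and Fth-ps3 in these arrays had been seen, so those 2 ratios describe the choice and support nothing. All 8 members were found among the 14386 genes with a named spot. They rest on 18 spots, which gave 68 readings of a possible 72 on the 4 arrays.

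CGR8 is a line of mouse embryonic stem cells. When such cells are cultured in hanging drops they gather into embryoid bodies, aggregates in which they differentiate. The arrays have 2 channels, and each paired total RNA of hanging-drop aggregates, taken at day 3 or at day 10, with RNA of undifferentiated CGR8 cells, labelled day 0. Each day has 2 arrays, the second labelled a technical replicate, so each day counts as 1 replicate, the SD between its arrays holds technical error alone, and no significance test was possible. Neither the dyes nor the channel in the numerator is stated in the labels, nor whether the ratios of both days run the same way. A value is therefore called positive or negative as deposited, and neither side is read as a rise or a fall.

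Iron enters most cells as transferrin, the serum protein encoded by Trf, bound to the transferrin receptor encoded by Tfrc, and crosses the endosome membrane through the transporter encoded by Slc11a2. Cytosolic iron that is not used is stored in ferritin, a hollow shell of heavy chains, which oxidise the iron, and light chains, which help to mineralise it, while ferroportin, encoded by Slc40a1, exports iron from the cell. Ferritin and Tfrc transcripts carry iron-responsive elements, to which the iron regulatory proteins Aco1 and Ireb2 bind when iron is scarce, blocking translation of ferritin and protecting Tfrc mRNA from decay. Hmox1 breaks down heme and so releases its iron.

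RefSeq promoters (GRCm38.p6) were at hand for 3 of the 8 members, Fth1, Ftl1 and Tfrc. They are shown because no promoter was at hand for the other members. The storage genes Fth1 and Ftl1 had values on opposite sides at day 3, and whether these letters bear on that was not tested. Iron regulatory proteins act on the transcripts of these genes, in the opposite way for Tfrc. Each run below is the 150 bases before the annotated transcript start, read 5′ to 3′ on the gene's strand, and capitals mark a CCAAT box on either strand (CCAAT or ATTGG). For Fth1 the second of 2 annotated starts is shown, 2046 bases beyond the first. For Tfrc the first of 2 starts is shown, 226 bases before the other.
Fth1, chr19:9982496-9982645, plus strand: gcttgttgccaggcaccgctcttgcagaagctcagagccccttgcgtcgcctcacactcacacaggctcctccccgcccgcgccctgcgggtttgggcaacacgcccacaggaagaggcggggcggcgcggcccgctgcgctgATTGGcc
Ftl1, chr7:45459887-45460036, minus strand: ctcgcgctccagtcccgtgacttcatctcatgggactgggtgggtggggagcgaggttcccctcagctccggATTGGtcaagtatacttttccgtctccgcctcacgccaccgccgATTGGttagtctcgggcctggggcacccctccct
Tfrc, chr16:32608746-32608895, plus strand: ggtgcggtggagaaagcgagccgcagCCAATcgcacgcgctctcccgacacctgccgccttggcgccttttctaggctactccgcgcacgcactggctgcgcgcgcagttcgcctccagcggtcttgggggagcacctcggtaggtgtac
The Fth1 window holds 1 CCAAT box, which begins 7 bases before that start. Ftl1 has 2, at 78 and 34 bases before its start, and Tfrc has 1 at 124 bases. Among all 32851 promoters in the table, 33.85% hold such a box in the 250 bases before the start. The windows of Fth1 at its first start and of Tfrc at its second hold none. The letters TGACNNNGC, the core of the antioxidant response element, on either strand, were in none of these windows of 250 bases and in 10.16% of all promoters. These matches describe letters, and the arrays measured RNA, not binding at these places.

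All ratios below are log2 ratios after each array was centred on its median, averaged over the spots of a gene and given as mean ± SD of 2 technical arrays. A gene is called beyond 2-fold at a day when both arrays lie at or beyond 1 on the same side. By that rule 1 of the 8 members passed at day 3 and 2 at day 10, all on the positive side. The 2 at day 10 were Fth1 and Fth-ps3, whose day 10 ratios were seen before the choice. That count therefore supports nothing. Over all genes 2.80% of 13707 were called at day 3, 1.77% positive and 1.03% negative. At day 10 3.54% of 13199 were called, 2.15% positive and 1.39% negative. The members' median was 0.41 at day 3 and 1.03 at day 10, beside 0.01 and -0.01 over all genes. The day 10 median lies between the means of Trf, 0.998, and Hmox1, 1.05. Each of those means rests on 1 reading of array 1. The day 3 median lies between the means of Tfrc, 0.37 ± 0.93, and Slc40a1, 0.46 ± 0.49, whose spots disagreed. Neither median therefore shows a shift of the set. From array 1 of day 10 alone, without replicate 2, 6 members would pass at day 10, where 20.4% of all genes do. Array 2 alone gives 2 members and 16.2% of all genes.

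Undifferentiated stem cell markers were the check of the labels that ratios allow. All 6 listed markers had means below 0 at day 3, as did the 5 with 2 arrays at day 10. The day 10 check is weak, because Nanog read 0.15 and -0.59 on its 2 arrays and Esrrb 0.29 and -0.80. Pou5f1 and Zfp42 were negative on both day 10 arrays. These genes are named here after their values were seen. Dppa5a, a gene of undifferentiated stem cells, was the 1 called, at -2.71 ± 0.04 on day 3, and its day 10 arrays read 0.41 and -2.85. No channel was named the numerator from these signs. In these RNA mixtures a difference in the number of cells of a type and one in RNA per cell cannot be told apart.

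**Figure D1:**
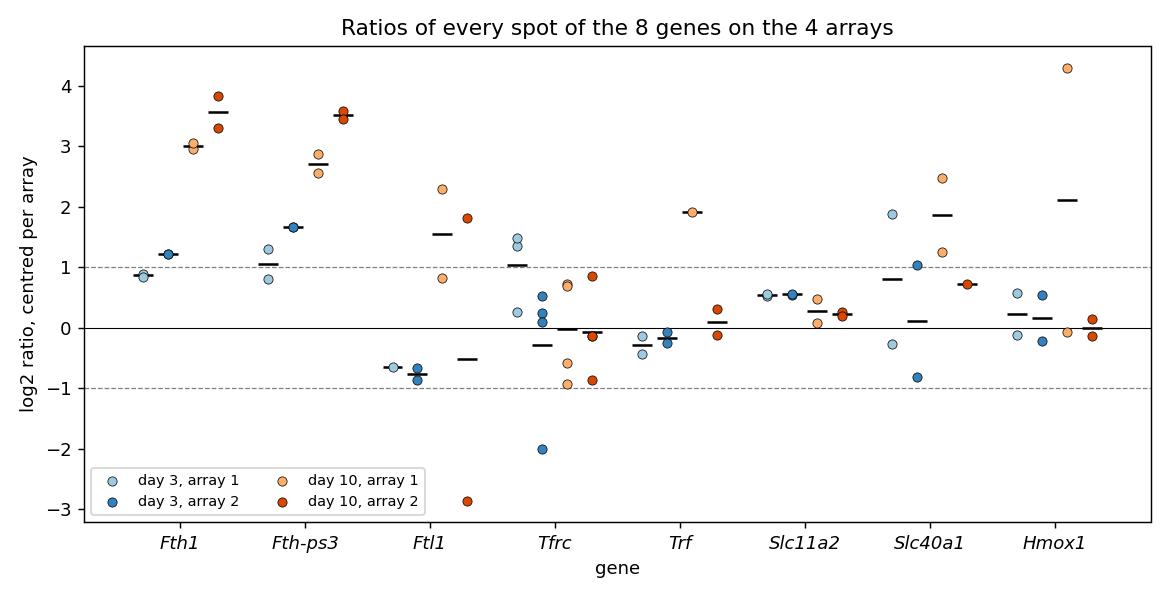
Centred log2 ratio (vertical axis) of every spot of the 8 genes, with 1 column of points per array and a black bar at the mean of the spots; dashed lines mark 2-fold. The points of Fth1 and Fth-ps3 lie between 2.55 and 3.83 at day 10, while Ftl1, Hmox1 and Slc40a1 have spots of 1 gene that lie far apart.

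Ferritin heavy chain stood far on the positive side at day 10. The 2 Fth1 spots read 2.95 and 3.06 on the first day 10 array, and 3.83 and 3.29 on the second. On the day 3 arrays the same spots read 0.89 and 0.84, then 1.22 and 1.21. All 8 readings were positive, and every day 10 reading exceeded every day 3 reading. The share of genes with such readings was not computed. The Fth1 mean was 3.28 ± 0.40 at day 10, a 9.72-fold difference between the channels, and held rank 3 from the top among 13199 genes. At day 3 it was 1.04 ± 0.25, which is 2.06-fold, at rank 573 of 13707. Fth1 was not called there, because its first array read 0.87.

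Fth-ps3, which RefSeq classes as a pseudogene, gave the same picture. Its spots read 2.86 and 2.55 on the first day 10 array and 3.58 and 3.45 on the second, against 0.80 and 1.30, then 1.66 and 1.66, at day 3. The mean of 3.11 ± 0.57 at day 10 ranked sixth, and that of 1.35 ± 0.43 at day 3 made it the 1 member called on that day. Heavy chain pseudogenes resemble Fth1 closely, so whether a spot of one also binds transcripts of the other bears on how far these are separate measurements, which was not tested.

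Another heavy chain pseudogene on the array, Fth-ps2, was called at day 10 as well, at 1.92 ± 0.51. Each of its day 10 values came from 1 spot, and not the same spot, 1.56 on array 1 and 2.28 on array 2. At day 3 it read 1.51 and 0.20 and was not called. Fthl17e, a heavy chain-like gene on the X chromosome that is named here after its values were seen, read 0.39 and 0.47 at day 3. At day 10 it had a value on array 2 alone, 0.28. Ftmt, the mitochondrial ferritin, likewise named after its values were seen, read 1.61 and -0.29 at day 3 and -2.03 and 0.78 at day 10, at a brightness percentile of 0.85.

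The light chain did not follow the heavy chain at day 3. Its first spot read -0.65 on array 1 and -0.86 on array 2, and its second spot -0.66 on array 2, with no value on array 1. The Ftl1 mean was -0.71 ± 0.08, on the negative side and 1.63-fold, short of the 2-fold limit. All 3 of these readings lay below all 4 Fth1 readings of that day. At day 10 the spots disagreed: spot 1 read 0.82 and 1.81 on the 2 arrays, while spot 2 read 2.29 and -2.86. The gap of 4.67 between the spots on array 2 was larger than that of 99.8% of genes with 2 spots. The mean of 0.51 ± 1.47 therefore has an error larger than itself, and no side can be given for Ftl1 at day 10.

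Many deposited values are log2 ratios of whole numbers, so the smallest pair behind a value can be recovered, up to a common factor that is lost. The second Ftl1 spot came back as 29 over 6 on the first day 10 array and 278 over 2079 on the second. Its first spot gave 3511 over 2013 on array 1, and on array 2 no pair up to 10000. All 8 Fth1 readings were of that last kind, with no pair up to 10000, which the measure counts as bright. The Fth1 brightness percentile among all genes was 81.5, that of Fth-ps3 74.1 and that of Ftl1 47.4. A low pair such as 29 over 6 can also come from larger numbers with a common factor, so it is a lower bound on the signal. The percentiles rank these recovered numbers and are no measure of signal.

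**Figure D2:**
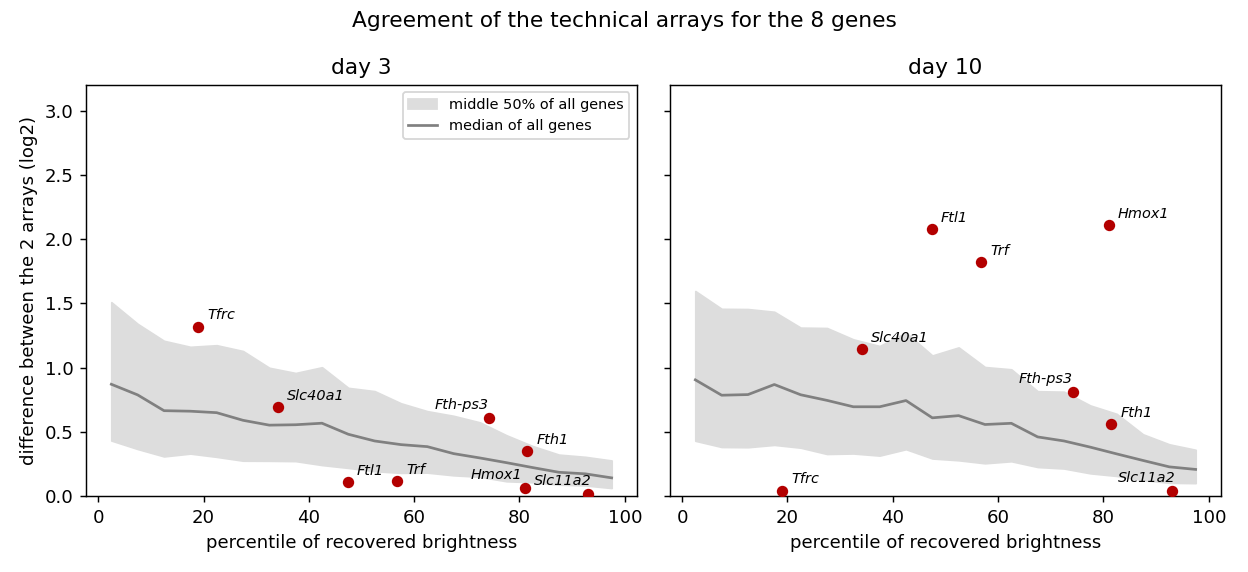
Absolute difference between the 2 technical arrays of a day (log2, vertical axis) against the percentile of recovered brightness for the 8 genes (red) and all genes (grey line, median in steps of 5 percentiles; band, middle 50%). At day 10 Ftl1, Trf and Hmox1 differ between arrays by 2.08, 1.82 and 2.11, above the band, while Fth1 differs by 0.56.

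Of the uptake genes, none was called on either day. Tfrc was spotted from 2 cDNA accessions with 2 spots each, and these did not give the same values. Averaged by accession, one gave 0.25 and -0.89 at day 3 and -0.76 and -0.50 at day 10, while the other gave 1.42 and 0.30, then 0.70 and 0.35. The average of the first accession was lower on each of the 4 arrays, but single spots overlapped on array 2 of each day. On day 3 array 2 its spots read 0.24 and -2.01, against 0.09 and 0.52. On day 10 array 2 they read -0.139 and -0.867, against 0.852 and -0.144. It had 1 spot with a value on day 3 array 1. Pooled over its 4 spots, Tfrc had a mean of 0.37 ± 0.93 at day 3 and -0.05 ± 0.03 at day 10. The small SD at day 10 hides spots from -0.93 to 0.85. Its recovered brightness stood at percentile 19.0, with 1 reading that came back as 5 over 2 and another as 5441 over 3432.

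Trf had 4 negative readings at day 3, -0.43 and -0.14 on array 1 and -0.08 and -0.25 on array 2, with a mean of -0.23 ± 0.08. At day 10 its second spot read 1.91 on array 1, where the first spot had no value, and 0.30 on array 2, where the first read -0.13. The mean of 0.998 ± 1.29 rests on that 1 reading: array 2 alone gives 0.09. Trf is expressed by visceral endoderm and liver, and the 6 listed markers of those cells had a median of 0.20 at day 3 and, over 5 with 2 arrays, -0.22 at day 10. Their part in the Trf values was not tested.

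Slc11a2, the endosomal and intestinal iron transporter DMT1, had the smallest differences between the arrays of a day among the 8 at day 3. Its spots read 0.52 and 0.55 on the first day 3 array and 0.53 and 0.56 on the second, giving 0.54 ± 0.01. On the day 10 arrays they read 0.47 and 0.07, then 0.27 and 0.19, giving 0.25 ± 0.03. All 8 readings were positive and every day 10 reading lay below every day 3 reading. The share of genes with such readings was not computed. The difference between the days, -0.29, stood at percentile 33.6 of all genes, if the ratios of both days run the same way. Both means are small, 1.45-fold and 1.19-fold, and the gene's brightness percentile of 93.0 was the highest of the 8. Under the other ways of processing that kept both arrays, the day 3 value lay between 0.51 and 0.59, the day 10 value between 0.13 and 0.35, and the difference between the days from -0.43 to -0.23.

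Slc40a1, ferroportin, had spots that disagreed at day 3. Spot 1 read 1.88 and 1.04 on the 2 arrays and spot 2 -0.28 and -0.81, so that their mean was 0.46 ± 0.49. The gap between the spots, 2.16 on array 1 and 1.85 on array 2, exceeded that of 94.1% and 93.9% of genes with 2 spots. At day 10 spot 1 read 1.24 and 0.72 and spot 2 read 2.48 on array 1 alone, for a mean of 1.29 ± 0.81. All 4 readings of spot 1 were positive, but spot 2 on array 1 came back as 149 over 27, and the second array stayed within 2-fold.

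Hmox1, the inducible heme oxygenase, likewise rested on 1 reading. Its day 3 mean was 0.19 ± 0.05, from -0.13 and -0.23 at spot 1 and 0.57 and 0.54 at spot 2. The day 10 readings were -0.08 and -0.14 at spot 1, and 4.30 and 0.13 at spot 2. The value of 4.30 stood apart from the other 7 readings of the gene, none of which reached 0.6 in size, and from its neighbour on the same array by 4.37, more than in 99.3% of genes. The day 10 mean of 1.05 ± 1.49 falls to 0.00 on array 2 alone, and 3 of the 4 day 10 readings lay within 0.14 of 0.

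**Figure D3:**
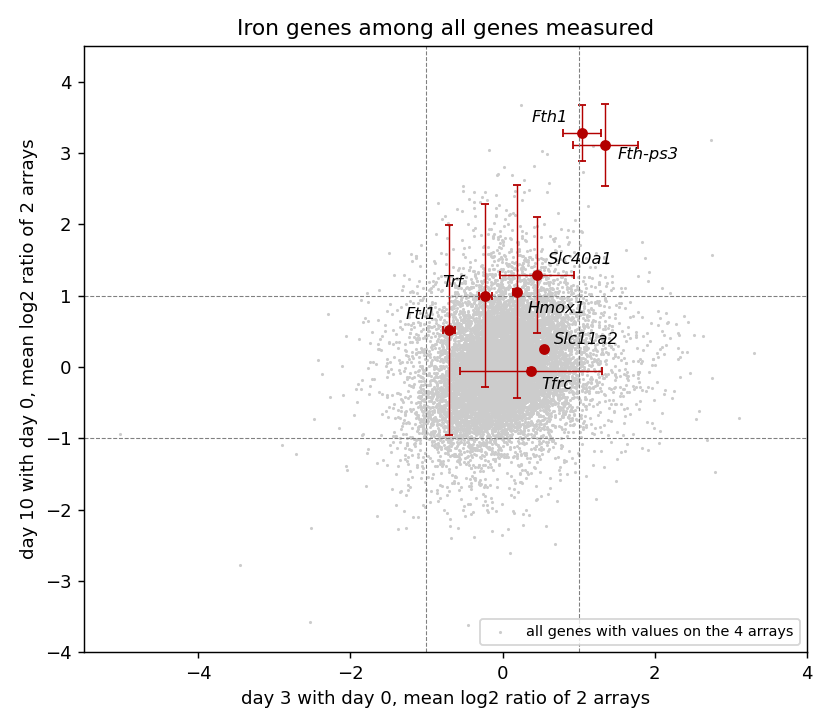
Mean log2 ratio of the 2 arrays at day 3 (horizontal axis) and day 10 (vertical axis) for the 8 genes (red, bars are the SD of 2 technical arrays) and all 12654 genes with values on the 4 arrays (grey); dashed lines mark 2-fold. Fth1 and Fth-ps3 lie at the upper edge, at 3.28 and 3.11 for day 10, and the other 6 genes lie within the cloud.

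Both days were hybridised with day 0 RNA, so a difference between day 10 and day 3 can be formed through it if that RNA was the same and the ratios of both days run the same way, neither of which the labels say. A difference was called when all 4 pairs of a day 10 and a day 3 array differed by at least 1 with the same sign. Of the 8 members 2 were called, both positive, against 3.54% of all 12654 genes, 1.82% positive and 1.72% negative. These were again Fth1 and Fth-ps3, whose day 10 ratios were seen before the choice, so this count supports nothing either. Fth1 differed by 2.24 ± 0.47, with pair differences from 1.78 to 2.70, and Fth-ps3 by 1.76 ± 0.72, with pair differences from 1.05 to 2.47. Ftl1 differed by 1.22 ± 1.47, Trf by 1.22 ± 1.29, Hmox1 by 0.87 ± 1.49 and Slc40a1 by 0.83 ± 0.95. Those 4 differences are no larger than their errors, or nearly so. Tfrc differed by -0.42 ± 0.93 and Slc11a2 by -0.29 ± 0.03. Without day 10 replicate 2 the count of members called between the days was 6, beside 15.4% of all genes. Without day 3 replicate 2 it was 3, beside 11.3%, and without either of the other arrays 2.

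Over the 12654 genes with all 4 values, members left out, those nearest to Fth1 by Euclidean distance (log2, 4 arrays) were Daw1 at a distance of 0.78, Crebzf at 1.31, Mss51 at 1.37, Pcgf1 at 1.44 and Inpp4a at 1.56. Daw1 encodes an axonemal dynein assembly factor, Crebzf a transcription factor of the bZIP family and Pcgf1 a Polycomb subunit. Daw1 read 0.31 and 0.86 at day 3 and 2.72 and 3.26 at day 10. The distance is a description over 4 arrays of 2 RNA pairs.

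Of 91 listed genes of the wider iron and heme pathway 70 were on named spots, 8 of them the members. Leaving the members out, 0 of 58 measured genes were called at day 3 and 2 of 61 at day 10, Fth-ps2 and Alas2. That is 3.28% at day 10, near the 3.54% of all genes, and at day 3 the share of all genes, 2.80%, is too small to set 0 of 58 apart. The medians of these other genes were 0.09 and -0.08.

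**Figure D4:**
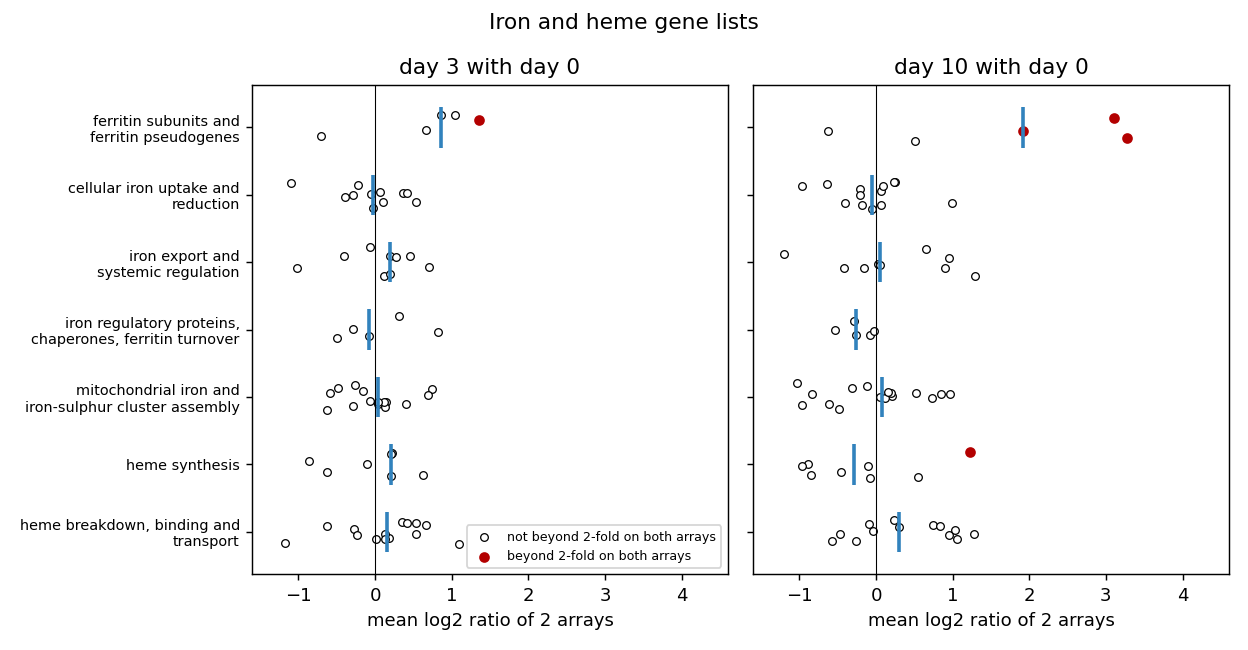
Mean log2 ratio of 2 arrays (horizontal axis) for the genes of 7 iron and heme lists at day 3 (left) and day 10 (right); red points passed 2-fold on both arrays, blue bars are list medians, and vertical jitter has no meaning. Ferritin has 1 red point at day 3 and 3 at day 10, and heme synthesis 1 at day 10.

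Iron uptake and reduction genes had a median of -0.03 over 11 measured at day 3 and -0.05 over 13 at day 10, with none called. Slc11a1, a metal transporter of macrophage phagosomes, was farthest out at -1.09 ± 1.06 on day 3, from array values of -0.34 and -1.84. Among export and systemic genes, ceruloplasmin, the copper ferroxidase of serum encoded by Cp, lay on the negative side on all 4 arrays. It read -1.10 and -0.94 at day 3 and -1.73 and -0.67 at day 10, which misses the limit on 1 array each day. All 8 Cp spot readings were negative. Hamp, the iron hormone hepcidin, named here after its values were seen, had -0.41 ± 0.06 and 0.03 ± 0.53.

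Neither regulator of iron-responsive elements was called. Aco1, iron regulatory protein 1, had 0.82 ± 0.22 at day 3, which is 1.76-fold, and -0.08 ± 0.91 at day 10. Its day 10 arrays read -0.72 and 0.57, and its recovered brightness stood at percentile 11.8. Ireb2, iron regulatory protein 2, lay close to 0 on all arrays, with -0.29 ± 0.15 and -0.26 ± 0.07; it too was named after its values were seen. The ferritin iron chaperone gene Pcbp1 had -0.50 ± 0.11 and -0.53 ± 0.08. At day 10 0 of the 5 regulator, chaperone and turnover genes had a mean above 0, beside 6501 of 13199 over all genes, and none was called. Aco1 and Ncoa4, the latter at -0.02 ± 0.09, each had 1 array above 0. Ireb2, Pcbp1 and Herc2 were negative on both arrays. The count therefore shows no clear shift of the list. Ncoa4 and Herc2 were named after their values were seen.

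Mitochondrial iron and iron-sulphur cluster genes had medians of 0.04 over 15 and 0.08 over 16, with none called. Isca1, a cluster assembly factor, read -1.08 and -0.86 at day 10, a mean of -0.97 ± 0.16, after -0.48 ± 0.17 at day 3. Its partner Isca2, named after its values were seen, had 0.96 ± 0.04 at day 10 and -0.07 ± 0.19 at day 3. These assembly partners thus lay on opposite sides at day 10, each just short of 2-fold. Iba57 had -1.04 ± 2.08 at day 10, from -2.51 and 0.43, and a value on 1 array at day 3.

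In heme synthesis the erythroid and the general first enzyme had ratios of opposite sign at day 10. Alas2, the erythroid form, was called at 1.23 ± 0.23, but from 1 spot per array and not the same spot, at a brightness percentile of 8.68. Alas1, the form of other tissues, read -0.84 and -0.94 at day 10 and -0.69 and -0.56 at day 3, at percentile 98.4. Alas1 and the later enzyme gene Cpox, at -0.86 ± 0.21 on day 3 and -0.46 ± 0.06 on day 10, were named after their values were seen. In heme breakdown, Hmox2, the constitutive heme oxygenase and also named afterwards, had -0.63 ± 0.04 and -0.58 ± 0.25 with all arrays negative. Blvra, biliverdin reductase, had -1.17 ± 0.79 at day 3, and the heme-binding gene Hebp1 1.28 ± 1.69 at day 10, neither called.

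Cell types that handle much iron were followed beside these genes. Of the erythroid markers 6 had 2 arrays at day 10, with a median of 0.76 and 1 called, the erythropoietin receptor gene Epor at 1.29 ± 0.16, from 1 spot at brightness percentile 5.35. The embryonic globin gene Hbb-bh1 had 1.12 ± 0.21 at day 10, from 0.97 and 1.27, after -0.38 ± 0.01 at day 3. That small SD hides spots of 0.17 and -0.93 on array 1. Values within the list spread widely at day 10: Klf1, an erythroid transcription factor, had -0.69 ± 1.15 and the embryonic globin gene Hba-x 0.11 ± 0.21, both named after their values were seen. At day 3 the erythroid median was 0.06 over 6, with Slc4a1, the band 3 anion exchanger, called at 1.44 ± 0.34. Its spots read 0.62 and 1.78 on array 1, and 1 spot read 1.69 on array 2. The most reproducible spot alone gave 1.15 ± 0.75, which is no call. Macrophage markers had a median of -0.04 over 4 at day 3 and 0.63 over 3 at day 10, none called, and fibroblast markers 0.08 and -0.23. The visceral endoderm and liver list had 1 call at day 3, Apob at 1.29 ± 0.35, from 1 spot on array 2 and at brightness percentile 5.27. Over all genes 2.80% were called at day 3 and 3.54% at day 10, and 1 call in so short a list sets none apart. The part of these cell types in the ferritin values was not tested.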

How the data were processed

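Arrays of CGR8 embryoid body RNA with day 0 RNA were grouped by the day in the source label, 2 for each of day 3 and day 10. The values deposited by the authors are 1 log2 ratio per spot and array, and the labels say nothing of how they were made. Base 2 was settled from the values: between 3.78% and 4.34% of the first 5000 values of an array were ratios of whole numbers up to 100 in base 2, and at most 0.14% in base e or base 10. With whole numbers up to 10000, 59.3% to 62.0% of the values were such ratios to 9 decimals, against at most 1.86% after a small shift. Each array has 46128 spots, of which 37471 to 41386 had a value, and the number of arrays limits the precision.

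Spots were named through a platform probe table with symbols checked against RefSeq. It gave 1 symbol to 32544 spots, several to 588 and no row for 12996. Control spots, 480 of accessions spotted 96 times each, were left out, and the median of the remaining spots was subtracted per array. Technical arrays correlated across genes at r = 0.27 (day 3) and 0.22 (day 10). The arrays of a day put 102 genes (day 3) and 195 (day 10) beyond 2-fold in opposite directions. Brightness was taken as the geometric mean, on a log2 scale, of the recovered whole numbers, ranked over genes.

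The members, lists and limits were chosen with earlier results of these data known. Named were the members, each list's called genes or otherwise its 2 farthest means, the 5 genes nearest to Fth1 and called markers; others are marked. Calling was tested on simulated data. The alternatives were no centring, a common spread, median or most reproducible spot, removal of a brightness trend in 50 bins, other limits and each array left out. Dropping readings whose recovered numbers were under 100 was chosen after the data were seen. Python 3.11.15, numpy 2.4.6, pandas 2.3.3 and matplotlib 3.10.9 were used.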

Additional observations from a re-analysis of the deposited data

Results flagged for a closer look

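Averaged over spots, Trf lay on opposite sides of 0 at the 2 days on every array: -0.28 and -0.17 at day 3, and 1.91 and 0.09 at day 10. The 1.91 came from 1 spot, and the 0.09 averages spots of -0.13 and 0.30. The difference, day 10 minus day 3, was 1.22, and it was not tested. Hbb-bh1, an embryonic globin gene, did the same with -0.38 and -0.39, then 0.97 and 1.27, a difference of 1.498 that was not tested either. Its -0.38 averages spots of 0.17 and -0.93, and its values of -0.39 and 0.97 came from 1 spot each.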

How the results depend on the processing

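With both arrays of a day kept, Fth1 lay between 1.01 and 1.15 at day 3, 3.04 and 3.37 at day 10 and 1.89 and 2.25 between the days. On single arrays it was 0.87 to 1.22 at day 3 and 3.00 to 3.56 at day 10. Of 144 member values with both arrays kept, 129 moved by less than 1 SD of the 2 arrays and 15 by more, 9 of them of Slc11a2, and 5 changed sign. Those 5 came from the most reproducible spot in place of the mean: Slc40a1 -0.55 at day 3, Tfrc 0.78 at day 10 and 0.54 between the days, and Hmox1 -0.11 at day 10 and -0.66 between the days. That setting also moved Ftl1 to 1.31 at day 10 and 2.07 between the days. The SD of 2 arrays is wide where they disagree, so these Ftl1 and Hmox1 shifts at day 10 counted as less than 1 SD. It was narrow for Slc11a2, 0.01 at day 3 and 0.03 at day 10, so small shifts counted as more. Dropping readings with a recovered number under 100 left Ftl1 at 0.15 on day 10 and Slc40a1 at 0.98. With 1 array left out another 5 of 64 changed sign, among them Ftl1 at day 10, at -0.53 without replicate 1. Counts of members depend on the limit: at day 3 (1 member) 3 at 1.5-fold, 0 at 4-fold and 2 by the mean alone, at day 10 (2 members) 4 by the mean alone, and between the days (2 members) 0 at 4-fold, 4 by the mean alone and 1 with a common spread. Pathway genes called at day 3 (1) became 3 with a common spread, 2 with the most reproducible spot, 9 at 1.5-fold, 0 at 4-fold and 6 by the mean alone. At day 10 (4) they became 16, 2 and 10 for the last 3 settings. No share over all genes was computed for other limits or other processing. These counts therefore show only how they change with the setting. Leaving out an array leaves 1 array to decide a call, which gave 2 members at day 3 either way, 2 to 6 at day 10 and 2 to 6 between the days, and 5 to 12 and 13 to 20 pathway genes. Of all genes, 20.4% were called at day 10 without replicate 2 and 16.2% without replicate 1. Between the days 15.4% were called without day 10 replicate 2 and 11.3% without day 3 replicate 2. No such share was computed at day 3. No paired analysis was possible because replicate numbers do not link arrays of different days. Recovered brightness is a lower bound, so it does not show which readings were dim.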
